A study of Mus musculus with 21 samples.

Results

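The genes described are the mitochondrial carriers of the SLC25 family, taken as every row of the deposited expression table whose platform gene symbol starts with Slc25a. There were 46 such rows for 46 different genes, among 19505 genes in all, so no choice between rows of 1 symbol was needed. The pseudogene *Slc25a5-ps* is not analysed here. RNA was measured on 21 Affymetrix arrays in wildtype mouse CD8+ T cells, with 7 biological replicates in each of 3 media. The cells of all 3 groups came from spleen cultures stimulated with CD3/CD28 beads, from which magnetic separation recovered the CD8+ fraction after 48 h in the medium. The control group was grown in fresh medium. The AML group was grown in filtered supernatant of WEHI 3B cells, the single mouse leukaemia line used in this study to represent acute myeloid leukaemia (AML). The DC group was grown in filtered supernatant of dendritic cells derived from bone marrow, which are not leukaemic. The labels do not say how many mice were used or whether cells were pooled.

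Carriers of this family are small proteins of the inner mitochondrial membrane that move metabolites between the cytosol and the matrix, mostly by exchanging 1 compound for another. They carry ADP in and ATP out, bring in phosphate, and pass citrate, malate, aspartate, glutamate, nucleotides, cofactors, iron and glutathione across a membrane that these compounds cannot otherwise cross. An activated T cell grows quickly and depends on this traffic for respiration, for citrate that leaves to make lipid, and for the shuttles that re-oxidise cytosolic NADH.

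Of the 46 carriers, 0 passed the test after AML-conditioned against fresh medium, where 2.77% of all genes passed. After DC-conditioned against fresh medium 0 passed, where 0.0% of all genes did. Between the conditioned media 1 passed (2.17%), where 2.39% of all genes did. That gene was *Slc25a35*, an orphan carrier, which was higher in AML-conditioned than in DC-conditioned medium. Its call held in 25 of 32 other settings and was lost without AML replicates 4 and 5. The adenine nucleotide carriers *Slc25a4* and *Slc25a24* were the lowest in AML-conditioned medium relative to fresh medium, at log2 differences of -0.28 ± 0.08 (SE, 7 arrays a group) and -0.58 ± 0.18. Neither passed the threshold in the fit used throughout, and both passed it under some other settings. Around the carriers, *Mtch1*, *Me2*, *Fech*, *Ak4* and *Hk1* fell in AML-conditioned medium against both other media, and without AML replicates 4 and 5 the only one of these calls that held was that of *Mtch1* against DC-conditioned medium. All values are deposited log2 values after RMA normalization, and a difference of 1 on this scale is a 2-fold change. A gene is called where limma's moderated test gave a Benjamini-Hochberg adjusted p under 0.05 over all 19505 genes.

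The promoters of the 2 main adenine nucleotide translocases are shown because this pair of closely related carriers performs the ADP/ATP exchange, and their values are set side by side in what follows. *Slc25a4* encodes the isoform typical of heart and muscle, and *Slc25a5* the isoform typical of dividing cells. Each sequence runs from 250 bases before to 50 bases after the transcript start in RefSeq (GRCm38.p6), at chr8:46211013-46211312 on the minus strand for *Slc25a4* and chrX:36795347-36795646 on the plus strand for *Slc25a5*. Capitals mark the matches to the motifs searched, which were the CCAAT box, the TATA core (letters TATAA), 2 hypoxia response cores (GCGTG, and separately ACGTG) and the E-box (CACGTG).
Slc25a4: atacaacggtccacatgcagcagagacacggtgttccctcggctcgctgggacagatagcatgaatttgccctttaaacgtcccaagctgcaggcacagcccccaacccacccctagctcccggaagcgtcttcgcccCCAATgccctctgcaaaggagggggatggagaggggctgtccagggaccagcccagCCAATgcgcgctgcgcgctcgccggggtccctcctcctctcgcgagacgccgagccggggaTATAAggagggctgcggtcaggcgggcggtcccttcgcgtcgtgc
Slc25a5: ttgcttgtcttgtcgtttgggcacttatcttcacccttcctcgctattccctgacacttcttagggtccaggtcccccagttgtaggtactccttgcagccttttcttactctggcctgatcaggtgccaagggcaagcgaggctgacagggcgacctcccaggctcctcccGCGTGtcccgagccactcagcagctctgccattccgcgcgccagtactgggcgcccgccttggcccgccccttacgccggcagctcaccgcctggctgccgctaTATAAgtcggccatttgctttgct

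The window of *Slc25a4* held 2 CCAAT matches and 1 TATAA match, and that of *Slc25a5* held 1 GCGTG and 1 TATAA match. The TATAA matches began 5 (*Slc25a4*) and 26 (*Slc25a5*) bases after the transcript start used, and the other matches lay before it. The RefSeq table held 46 promoters for 36 of the 46 carriers. Both strands were searched, and every CACGTG also contains an ACGTG. Of the 46 carrier promoters, 54.3% held GCGTG, against 32.4% of all 32851 promoters of the same length. CCAAT was present in 47.8% against 37.4%, ACGTG in 28.3% against 19.6% and CACGTG in 17.4% against 7.15%. TATAA was present in 10.9% against 24.9%. These matches are descriptions of letters, and genes with several starts contributed more than 1 promoter.

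The arrays carried the marks of CD8+ T cells. The mean log2 value over 6 measured T cell and CD8 genes lay between 11.02 and 11.25 on all 21 arrays. Of the lists for other cells, that for CD4 T cells (2 genes) was highest, at 5.99 to 7.28. The others lay at 4.42 to 5.08 for B cells (4 genes), 3.97 to 4.19 for myeloid cells (8 genes), 3.50 to 3.89 for dendritic cells (6 genes), 2.98 to 3.45 for natural killer cells (2 genes), 4.15 to 4.66 for erythroid cells (3 genes) and 4.46 to 4.88 for reticular cells (5 genes). Single genes lay higher, such as the B cell gene *Cd79b*, with group means of 6.91 to 7.0. No gene of these lists was called in any comparison except *Cd4*, whose log2 value was 0.79 higher in AML-conditioned than in fresh medium (limma, adjusted p = 0.015). *Cd4* lay at 7.25 to 8.16 in fresh, 7.56 to 8.57 in DC-conditioned and 7.80 to 9.03 in AML-conditioned medium, and its part in the carrier values was not tested. The labels name CD8+ T cells except in 1 field, which gives reticular cells. In bulk RNA, fewer cells of a type and less RNA per cell cannot be told apart. RMA values have no measured background, and *Slc25a21*, *Slc25a31* and *Slc25a48* had mean levels below 3.67, the 25th percentile of all genes, where differences are compressed.

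Over all genes the array farthest from the other media was fresh replicate 1, with 31.5% of all genes and 11 of 46 carriers (23.9%) outside the range of the 14 arrays of the conditioned media. Without it 0 carriers were called against fresh medium and 1 between the conditioned media, as with it. Leaving it out moved the difference from fresh medium by over 0.1 for *Slc25a13* and *Slc25a41* in both conditioned media, and for no other carrier. In the AML group, replicates 4 and 5 departed most from the other media. In replicate 5, 22 of 46 carriers (47.8%) lay outside the range of the 14 arrays of the other media, against 26.9% of all genes. In replicate 4 this held for 14 carriers (30.4%), against 25.1% of all genes. The other 5 AML arrays had 4 to 13 carriers outside that range, or 8.7% to 28.3%, where all genes had 11.5% to 17.2%. On both of these arrays 8 carriers lay below all 14 arrays of the other media, namely *Slc25a4*, *Slc25a11*, *Slc25a17*, *Slc25a20*, *Slc25a23*, *Slc25a24*, *Slc25a40* and *Slc25a45*. Another 5 lay above all of them on both, namely *Slc25a3*, *Slc25a18*, *Slc25a22*, *Slc25a28* and *Slc25a51*. The share of all genes that lay outside on both arrays was not counted, so these names are descriptions and not a trait of the carriers. Leaving both out moved the difference between AML-conditioned and fresh medium by over 0.1 for 10 carriers. For *Slc25a2*, a relative of the ornithine carriers, it went from -0.04 to -0.15, for *Slc25a18* from -0.03 to -0.14 and for the orphan *Slc25a43* from -0.10 to 0.03. The other 7, *Slc25a22*, *Slc25a23*, *Slc25a24*, *Slc25a32*, *Slc25a40*, *Slc25a42* and *Slc25a45*, are given both ways where they are described. AML replicates 4 and 5 were left out because they departed most, and fewer arrays remain without them. A call lost in that setting thus does not show that it rested on these arrays alone.

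**Figure D1:**
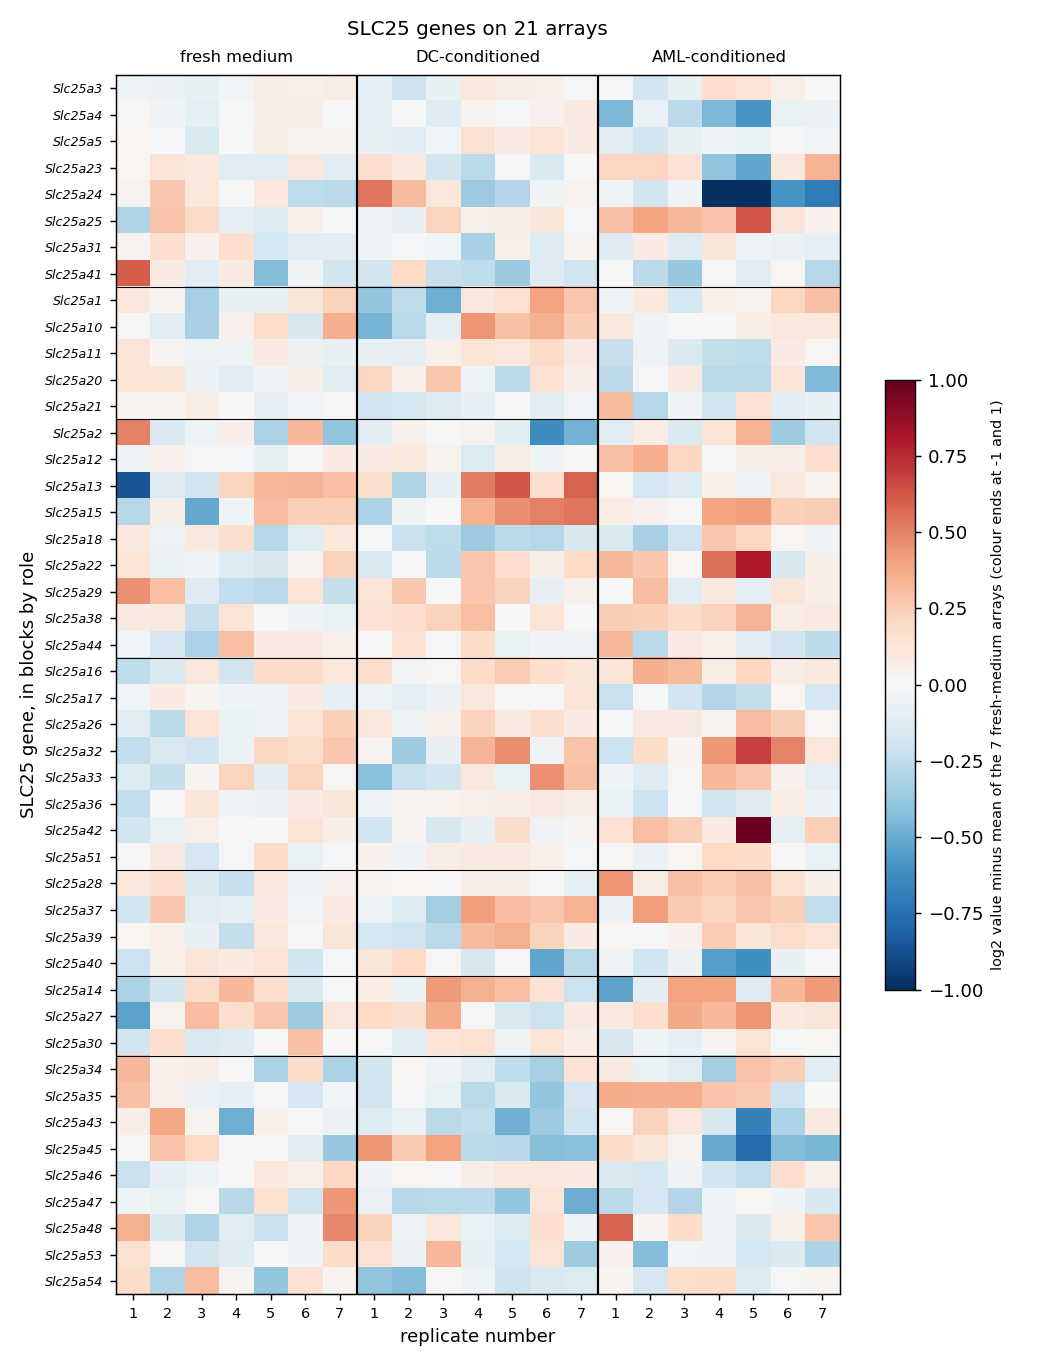
Log2 value of each of the 46 SLC25 genes on each of the 21 arrays, minus the mean of the 7 fresh-medium arrays of that gene (colour, ending at -1 and 1); columns are replicates 1 to 7 of each medium and rows are ordered by role. *Slc25a24* is the darkest gene on AML-conditioned replicates 4 and 5, with log2 values of 5.26 and 5.27 against a fresh-medium mean of 6.52.

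As a set the carriers were centred near 0 in every comparison. Against fresh medium, 0 of 46 carriers were called after AML-conditioned medium, where 2.77% of all genes (541 of 19505) were called. At an unadjusted p under 0.05 there were 11 carriers (23.9%), against 15.9% of all genes. Of these 8 were higher, where 7.11% of all genes were, and 3 lower, where 8.78% were. The median log2 difference of the carriers was 0.01, that of all genes -0.01, and the carriers ranged from -0.58 to 0.30, with 24 positive and 22 negative. The median size of the difference, without its sign, was 0.11 for the carriers and 0.09 for all genes.

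Precision was set by the 7 arrays a group, with a median SE of 0.10 over the carriers. For 23 of 46 carriers the 95% interval of the difference between AML-conditioned and fresh medium stayed within a 1.25-fold change in either direction, for 44 within 1.5-fold and for all 46 within 2-fold. The intervals of *Slc25a24* and *Slc25a45* reached past 1.5-fold. A p that misses the threshold does not show that a gene had equal levels.

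After DC-conditioned medium 0 of 46 carriers were called against fresh medium, where 0.0% of all genes were called by limma. At an unadjusted p under 0.05 there were 2 carriers (4.35%), against 6.41% of all genes. Both were lower, as were 4.29% of all genes, and 0 were higher, where 2.13% of all genes were. The median log2 difference was 0.03 for the carriers and -0.01 for all genes, and the range was -0.25 to 0.24. All 46 intervals stayed within 1.5-fold, and 30 within 1.25-fold.

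Between the conditioned media 1 of 46 carriers (2.17%) was called, where 2.39% of all genes (466) were called, so the share lay near the background. In the direction of the call, higher in AML-conditioned medium, 1.13% of all genes were called. At an unadjusted p under 0.05 there were 12 carriers (26.1%), against 14.3% of all genes. Of these 7 were higher in AML-conditioned medium, where 6.82% of all genes were, and 5 lower, where 7.44% were. The carriers ranged from -0.62 to 0.38 around a median of 0.04, and all genes had a median of 0.01. The 7 arrays of 1 medium did not separate fully from the 7 of another for any carrier in any comparison, where 0.795% (AML-conditioned against fresh), 0.113% (DC-conditioned against fresh) and 0.815% (AML-conditioned against DC-conditioned) of all genes did. The comparisons share arrays, so their values are given side by side and not counted as independent.

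**Figure D2:**
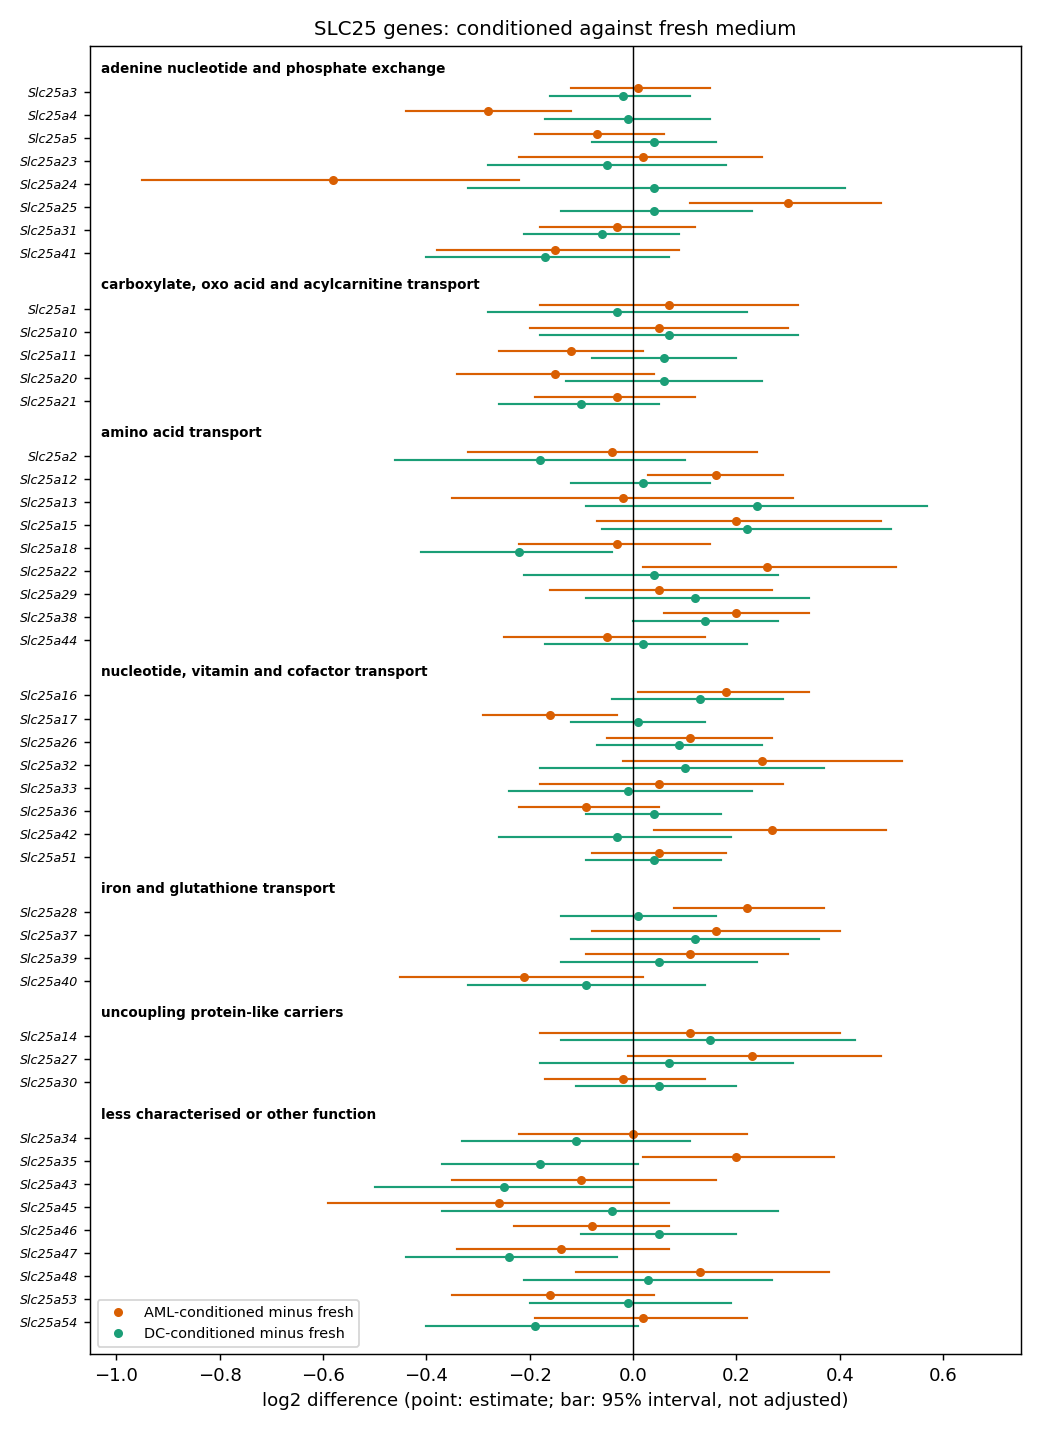
Log2 difference from fresh medium for each of the 46 SLC25 genes, in blocks by role, for AML-conditioned (orange) and DC-conditioned (green) medium; points are estimates over 7 arrays a group and bars are 95% intervals that are not adjusted for the number of genes. Most points lie between -0.25 and 0.25, and *Slc25a24* in AML-conditioned medium lies farthest from 0, at -0.58.

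The adenine nucleotide and phosphate carriers (8 genes) supply the ATP synthase with ADP and phosphate and export its ATP. None was called in any comparison. In AML-conditioned against fresh medium limma gave an unadjusted p under 0.05 for 3 of the 8, and for 15.9% of all genes. *Slc25a4*, an ADP/ATP translocase, had a lowest, median and highest log2 value of 10.73, 10.82 and 10.88 in fresh, 10.69, 10.81 and 10.91 in DC-conditioned, and 10.23, 10.56 and 10.76 in AML-conditioned medium. The AML arrays thus spread more widely (SD 0.22) than the fresh (0.06) and DC arrays (0.08). Replicates 1, 3, 4 and 5 of the AML group lay below all fresh arrays, and its replicates 2, 6 and 7 lay at 10.75 to 10.76, inside the fresh range.

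The difference of *Slc25a4* in AML-conditioned medium was -0.28 against fresh (95% interval -0.44 to -0.12, limma adjusted p = 0.055) and -0.27 against DC-conditioned medium (adjusted p = 0.0712). In 9 of 32 alternative settings it passed the threshold against fresh medium, with adjusted p from 0.0244 to 0.0439, among them those without AML replicate 2 (0.0384), 6 (0.0244) or 7 (0.0259). Without AML replicates 4 and 5 the difference was -0.18 (adjusted p = 0.346). The other translocase, *Slc25a5*, had medians of 12.04 in fresh, 12.11 in DC-conditioned and 11.96 in AML-conditioned medium. Its difference from fresh medium was -0.07 after AML-conditioned (interval -0.19 to 0.06) and 0.04 after DC-conditioned medium, and its groups overlapped throughout.

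*Slc25a3*, the phosphate carrier, gave ranges of 11.05 to 11.20 in fresh, 10.92 to 11.23 in DC-conditioned and 10.94 to 11.29 in AML-conditioned medium. Its differences were 0.01 after AML-conditioned (interval -0.12 to 0.15) and -0.02 after DC-conditioned medium. Both intervals lay within a 1.25-fold change. The testis isoform *Slc25a31* lay between 2.57 and 3.06 on all arrays, below the 25th percentile of levels.

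The exchangers of ATP-magnesium for phosphate, several of which are switched on by cytosolic calcium, differed among themselves. *Slc25a24* had log2 values of 6.24, 6.55 and 6.78 (lowest, median, highest) in fresh, 6.15, 6.55 and 7.05 in DC-conditioned and 5.26, 5.92 and 6.48 in AML-conditioned medium. Within the AML group, replicates 4 and 5 were lowest at 5.26 and 5.27, replicates 6 and 7 lay at 5.92 and 5.81, and replicates 1 to 3 lay at 6.33 to 6.48, inside the fresh range. Replicates 1 to 3 of the other media lay higher, at 6.55 to 6.78 in fresh and 6.63 to 7.05 in DC-conditioned medium. Replicates 4 to 7 lay at 6.24 to 6.62 in fresh and 6.15 to 6.55 in DC-conditioned medium. The SD of *Slc25a24* in the AML group, 0.52, was the highest among the 46 carriers in any group.

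*Slc25a24* differed by -0.58 between AML-conditioned and fresh medium (interval -0.95 to -0.22, limma adjusted p = 0.0762), a 1.5-fold lower level, and by -0.62 between AML-conditioned and DC-conditioned medium (adjusted p = 0.0609). Without AML replicates 4 and 5 the difference from fresh medium was -0.31 (adjusted p = 0.457). Leaving out AML replicate 1 (adjusted p = 0.0447) or 3 (0.0446) instead took it past the threshold, at -0.67 in each case. Against DC-conditioned medium it was -0.36 without replicates 4 and 5 (adjusted p = 0.428), and leaving out AML replicate 1, 2 or 3 gave -0.69 to -0.71 (0.0349 to 0.0486). The sample titles do not name replicates 1 to 3 and 4 to 7 as sets, and the values of this gene themselves differ between them. A lower p with these sets in the fit is thus not independent support. With the set of replicates as a term, the estimates stayed at -0.58 and -0.62. The limma adjusted p was then 0.00701 against fresh and 0.0045 against DC-conditioned medium. One spread is shared by the 3 groups in this fit, so for a gene that varies most in the AML arrays the standard error of the AML comparisons is understated.

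*Slc25a25*, a related exchanger, had medians of 5.50, 5.55 and 5.79 in fresh, DC-conditioned and AML-conditioned medium, and 4 AML arrays lay above all fresh arrays. Its difference from fresh medium was 0.30 ± 0.09 (SE; limma adjusted p = 0.0751). In 31 of 32 alternatives it stayed above the threshold of adjusted p. The exception was without AML replicate 7, at 0.34 with an adjusted p of 0.0355. Without AML replicates 4 and 5 the difference was 0.23 (adjusted p = 0.337), and without fresh replicate 1 it was 0.25 (0.146). *Slc25a23* was spread in both directions in AML-conditioned medium, with 4 arrays above and 2 below all fresh arrays, and its mean difference was 0.02, or 0.21 without AML replicates 4 and 5 (limma adjusted p = 0.332). The 2 low arrays were replicates 4 and 5, at 8.53 and 8.41, against 9.04 to 9.28 on the other 5 AML arrays. *Slc25a41*, a shorter relative, lay at 4.70 to 5.74 in fresh medium and differed by -0.15 after AML-conditioned and -0.17 after DC-conditioned medium, or by -0.04 and -0.07 without fresh replicate 1.

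**Figure D3:**
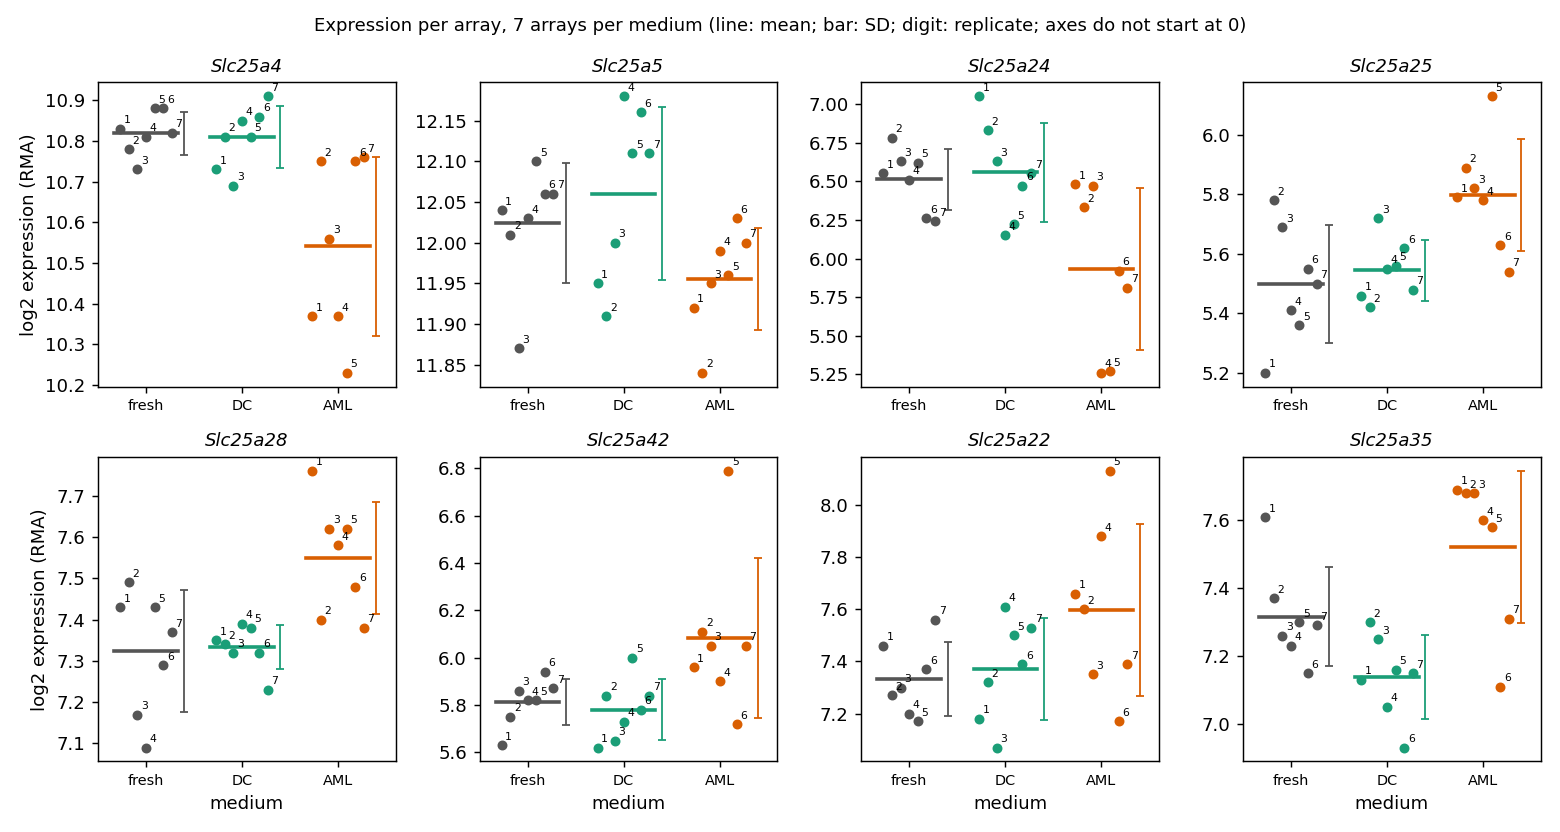
Log2 expression on every array for 8 SLC25 genes in fresh, DC-conditioned and AML-conditioned medium (7 arrays each); digits are replicate numbers, thick lines group means and bars SD, and the axes do not start at 0. *Slc25a5* overlaps between media, *Slc25a24* is lowest on AML replicates 4 and 5 and *Slc25a4* on AML replicate 5, and *Slc25a35* lies above all DC-conditioned arrays on 6 of 7 AML-conditioned arrays.

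Carriers of carboxylates, oxo acids and acylcarnitine (5 genes) had no call. In AML-conditioned against fresh medium limma gave 0 of 5 an unadjusted p under 0.05, against 15.9% of all genes. *Slc25a1*, which exports citrate for lipid synthesis, ranged from 9.16 to 9.73 in fresh, 9.01 to 9.90 in DC-conditioned and 9.32 to 9.79 in AML-conditioned medium. Its difference after AML-conditioned medium was 0.07 (interval -0.18 to 0.32). *Slc25a10*, the dicarboxylate carrier, differed by 0.05 and was tightest in the AML group, with an SD of 0.06 against 0.23 in fresh and 0.35 in DC-conditioned medium.

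*Slc25a11* exchanges malate for oxoglutarate in the malate-aspartate shuttle. Its medians were 9.64 in fresh, 9.78 in DC-conditioned and 9.55 in AML-conditioned medium, and 4 AML arrays lay below all fresh arrays. The difference was -0.12 against fresh and -0.18 against DC-conditioned medium (limma adjusted p = 0.421 and 0.203). *Slc25a20*, which brings acylcarnitines in for fatty acid oxidation, gave -0.15 and -0.21 in the same comparisons (adjusted p = 0.463 and 0.27), also with 4 AML arrays below all fresh arrays. Both genes belong to the 8 that were low on AML replicates 4 and 5, without which their differences from fresh medium were -0.07 and -0.10. *Slc25a21* lay between 2.68 and 3.28 on all arrays.

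Amino acid carriers (9 genes) likewise had no call. In AML-conditioned against fresh medium limma's unadjusted p was under 0.05 for 3 of 9, against 15.9% of all genes. Of the aspartate-glutamate exchangers of the malate-aspartate shuttle, *Slc25a12* lay at 9.99 to 10.15 in fresh, 9.93 to 10.17 in DC-conditioned and 10.05 to 10.43 in AML-conditioned medium. Its highest AML arrays were replicates 1 to 3, at 10.27 to 10.43, and the difference was 0.16 ± 0.06 (SE; adjusted p = 0.197). *Slc25a13*, the other exchanger, had its lowest array in fresh replicate 1, at 5.36 against 6.02 to 6.56 on the other 6. It differed by -0.02 after AML-conditioned and 0.24 after DC-conditioned medium (limma adjusted p = 0.974 and 0.861), with intervals of -0.35 to 0.31 and -0.09 to 0.57. Without fresh replicate 1 these differences were -0.16 and 0.10.

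*Slc25a22*, a glutamate carrier, had log2 values of 7.17, 7.30 and 7.56 in fresh, 7.07, 7.39 and 7.61 in DC-conditioned and 7.17, 7.60 and 8.13 in AML-conditioned medium. The 2 highest AML arrays were replicates 4 and 5, at 7.88 and 8.13. Its difference from fresh medium was 0.26 ± 0.12 (SE; limma adjusted p = 0.264), and 0.10 without these 2 arrays. *Slc25a18*, the second glutamate carrier, lay at 3.59 to 4.22 on all arrays and differed by -0.22 after DC-conditioned medium (unadjusted p = 0.0195, adjusted p = 0.727).

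*Slc25a38* imports glycine for haem synthesis. It lay at 6.96 to 7.33 in fresh, 7.19 to 7.49 in DC-conditioned and 7.27 to 7.53 in AML-conditioned medium, and 5 of 7 arrays of each conditioned medium lay above all fresh arrays. The difference was 0.20 ± 0.07 (SE) after AML-conditioned and 0.14 ± 0.07 after DC-conditioned medium (limma adjusted p = 0.128 and 0.787). *Slc25a15*, an ornithine carrier, gave a similar pair of differences, 0.20 and 0.22, with a larger SE of 0.14. *Slc25a29*, for basic amino acids, and *Slc25a44*, for branched-chain amino acids, differed by 0.05 and -0.05 after AML-conditioned medium.

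Among the 8 carriers of nucleotides, vitamins and cofactors none was called. Limma's unadjusted p in AML-conditioned against fresh medium was under 0.05 for 3 of them, against 15.9% of all genes. *Slc25a42*, which carries coenzyme A, had log2 values of 5.63, 5.82 and 5.94 in fresh, 5.62, 5.78 and 6.00 in DC-conditioned and 5.72, 6.05 and 6.79 in AML-conditioned medium. Replicate 5 stood alone at 6.79, and the next AML array lay at 6.11. The difference from fresh medium was 0.27 ± 0.11 (SE; adjusted p = 0.21), and 0.16 without AML replicates 4 and 5. *Slc25a16*, linked to coenzyme A supply, gave 0.18 ± 0.08 (adjusted p = 0.273).

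*Slc25a17*, a carrier of peroxisomes, was lower on 5 of 7 AML arrays than on all fresh and all DC-conditioned arrays, at 8.86, 8.96 and 9.17 (lowest, median, highest) against 9.06, 9.12 and 9.24 in fresh medium. Its differences were -0.16 and -0.17 (limma adjusted p = 0.192 and 0.184). *Slc25a32*, which carries folate and FAD, had its highest array in AML replicate 5, at 6.64, and differed by 0.25 ± 0.13 (SE; limma adjusted p = 0.373), or by 0.12 without AML replicates 4 and 5. The pyrimidine nucleotide carriers *Slc25a33* and *Slc25a36* differed by 0.05 and -0.09 from fresh medium after AML-conditioned medium. *Slc25a51*, the NAD carrier, lay at 8.82 to 9.19 on all 21 arrays, with differences of 0.05 and 0.04 and intervals within 1.25-fold.

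Iron and glutathione carriers (4 genes) had no call in any comparison. *Slc25a28* and *Slc25a37*, the mitoferrins, bring iron in for haem and iron-sulphur clusters. *Slc25a28* had log2 values of 7.09, 7.37 and 7.49 in fresh, 7.23, 7.34 and 7.39 in DC-conditioned and 7.38, 7.58 and 7.76 in AML-conditioned medium, and 6 of 7 AML arrays lay above all DC-conditioned arrays. The difference was 0.22 ± 0.07 (SE) against fresh and 0.21 against DC-conditioned medium (limma adjusted p = 0.0918 and 0.125). *Slc25a37* gave 0.16 ± 0.12 against fresh medium (adjusted p = 0.556).

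The glutathione carriers *Slc25a39* and *Slc25a40* had differences of opposite sign after AML-conditioned medium, 0.11 and -0.21, with adjusted p of 0.643 and 0.36 by limma. For *Slc25a40* the 2 lowest AML arrays were replicates 4 and 5, at 7.77 and 7.71, and the other 5 lay at 8.13 to 8.32. Without these 2 arrays its difference was -0.07. DC-conditioned replicate 6 was also low, at 7.80. In DC-conditioned medium *Slc25a39* split into replicates 1 to 3 at 8.92 to 9.01 and replicates 4 to 7 at 9.27 to 9.54. The same numbers gave 9.18 to 9.23 and 9.31 to 9.44 in AML-conditioned medium, and overlapped in fresh medium. The 3 carriers most like uncoupling proteins, *Slc25a14*, *Slc25a27* and *Slc25a30*, differed by 0.11, 0.23 and -0.02 after AML-conditioned medium and by 0.15, 0.07 and 0.05 after DC-conditioned medium.

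The last 9 carriers have no settled substrate or another function, and *Slc25a35* was the called one. It had log2 values of 7.15, 7.29 and 7.61 (lowest, median, highest) in fresh, 6.93, 7.15 and 7.30 in DC-conditioned and 7.11, 7.60 and 7.69 in AML-conditioned medium. On 6 of 7 AML arrays it lay above all DC-conditioned arrays, and AML replicate 6, at 7.11, lay within their range. The difference between AML-conditioned and DC-conditioned medium was 0.38 ± 0.09 (SE; interval 0.20 to 0.57; limma adjusted p = 0.022), a 1.3-fold higher level. Against fresh medium the AML difference was 0.20 and the DC difference -0.18, so fresh medium lay between them, and neither passed (adjusted p = 0.258 and 0.792). The call was lost without AML replicates 4 and 5 (0.36, adjusted p = 0.134) and when AML replicate 1, 4 or 5 or DC replicate 4 or 6 was left out (0.35 to 0.37, adjusted p from 0.0501 to 0.0551).

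*Slc25a45* showed the widest spread of this group in DC-conditioned and AML-conditioned medium, with SDs of 0.39 and 0.37. In DC-conditioned medium replicates 1 to 3 lay at 8.11 to 8.28 and replicates 4 to 7 at 7.42 to 7.58, and in AML-conditioned medium the same numbers gave 7.88 to 8.03 and 7.08 to 7.41. Its difference after AML-conditioned medium was -0.26 ± 0.16 (SE; limma adjusted p = 0.454), and -0.11 without AML replicates 4 and 5. *Slc25a46*, a protein of the outer membrane that takes part in mitochondrial shape, differed by -0.08 and 0.05 after AML-conditioned and DC-conditioned medium. Among these 9 genes, lowest after DC-conditioned medium were *Slc25a43* at -0.25, *Slc25a47* at -0.24 and *Slc25a54* at -0.19, with adjusted p from 0.744 to 0.804. Of these 3, *Slc25a47* and *Slc25a54* lay near the low end of the scale, between 3.81 and 5.17 on all arrays. For closely related or neighbouring genes, such as *Slc25a24* and *Slc25a54* on chromosome 3, whether probes share signal was not tested.

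Genes that work with the carriers were read from 10 lists with 114 names, of which 102 were measured. In AML-conditioned against fresh medium 6 of the 102 were called, all lower, which is 5.88% against 2.77% of all genes. In AML-conditioned against DC-conditioned medium 8 were called, 2 higher and 6 lower (7.84% against 2.39%), and after DC-conditioned against fresh medium 0 were called. These lists were chosen with earlier results of these data known, so their shares are descriptions.

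Of the 4 measured family members with other symbols, 1 fell. *Mtch1*, a carrier homologue of the outer mitochondrial membrane, had log2 values of 7.57 to 7.85 in fresh, 7.65 to 7.97 in DC-conditioned and 6.96 to 7.65 in AML-conditioned medium. AML replicates 6 and 7, both at 7.65, lay inside the fresh range, and the lowest DC-conditioned array had the same value to 2 decimals. *Mtch1* fell by 0.40 against fresh (limma adjusted p = 0.0213) and by 0.51 against DC-conditioned medium (adjusted p = 0.00474). The second call held in all 32 alternatives, with adjusted p up to 0.0447. The first was lost in 5, among them those without AML replicate 4 (-0.34, adjusted p = 0.0582), without AML replicate 5 (-0.38, 0.0604), without fresh replicate 2 (-0.38, 0.0522) and without both AML arrays (-0.31, 0.159). Its relative *Mtch2*, an insertase of that membrane, differed by -0.09 from fresh medium (interval -0.23 to 0.06), and the uncoupling proteins *Ucp1* and *Ucp3* by -0.11 and -0.29. Group means of both uncoupling proteins lay below 3.67, the 25th percentile of all genes. For *Ucp3* they were 3.45 in fresh, 3.15 in DC-conditioned and 3.16 in AML-conditioned medium. *Ucp2* is not analysed here.

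Import of carriers into the inner membrane uses the TOM pore, small TIM chaperones and the TIM22 complex, for which 16 of 16 listed genes were measured. *Tomm6*, a small subunit of the TOM pore, fell by 0.24 in AML-conditioned against fresh medium (limma adjusted p = 0.0402), a call that 15 of 32 alternatives did not keep. Leaving out any 1 of AML replicates 1 to 5 or of fresh replicates 1, 2 and 4 to 7 ended it, with adjusted p from 0.0553 to 0.0993. The median of the list was 0.02, and the carrier receptor *Tomm70a* and the pore *Timm22* gave -0.01 and -0.11.

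Shuttle enzymes that act on carrier substrates gave 1 call of 12. *Me2*, the mitochondrial malic enzyme, had log2 values of 8.89 to 9.36 in fresh, 8.97 to 9.47 in DC-conditioned and 8.22 to 9.17 in AML-conditioned medium, with replicates 4 and 5 lowest at 8.22 and 8.25. It fell by 0.53 against fresh and by 0.56 against DC-conditioned medium (limma adjusted p = 0.026 and 0.0202). Without AML replicates 4 and 5 the differences were -0.36 and -0.38 (adjusted p = 0.207 and 0.178), and either array alone also ended both calls (adjusted p from 0.0592 to 0.078). Leaving out fresh replicate 2, 4 or 5 or DC replicate 4 gave adjusted p from 0.0504 to 0.0531. Citrate synthase (*Cs*) and ATP-citrate lyase (*Acly*), which act before and after the citrate carrier, gave -0.04 and -0.06 against fresh medium.

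For haem and iron-sulphur clusters, 1 of 13 measured genes was called. *Fech*, which inserts iron to form haem and works downstream of the mitoferrins, had log2 values of 7.04 to 7.33 in fresh, 6.92 to 7.33 in DC-conditioned and 6.52 to 7.03 in AML-conditioned medium. All 7 AML arrays lay below all fresh arrays. It fell by 0.38 against fresh and by 0.33 against DC-conditioned medium (limma adjusted p = 0.0117 and 0.0247). Against fresh medium the call was lost only without AML replicates 4 and 5 (-0.29, adjusted p = 0.0961). Against DC-conditioned medium it was lost in 7 settings, among them without AML replicate 4 or 5 or DC replicate 4, 5 or 7 (-0.29 to -0.33, adjusted p from 0.0555 to 0.0739).

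*Mthfd2*, of the mitochondrial folate pathway that *Slc25a32* feeds, and *Aldh18a1*, which makes the precursor of proline and ornithine, were each 0.56 higher in AML-conditioned than in DC-conditioned medium (limma adjusted p = 0.0459 and 0.0421). They were the only calls among 9 and 6 measured genes of their lists. The AML arrays of *Mthfd2* ran from 9.29 to 10.31, highest on replicates 4 and 5, and the DC arrays from 8.80 to 9.56. For *Aldh18a1* the ranges were 8.94 to 9.75 and 8.31 to 9.14. Leaving out AML replicates 4 and 5 gave 0.36 and 0.40 (adjusted p = 0.358 and 0.331), and the calls were lost in 19 and 17 of 32 alternatives. Both calls ended without any 1 of AML replicates 1 to 5 or DC replicates 1, 2, 3 and 7 (adjusted p up to 0.135). Without DC replicate 6 only that of *Mthfd2* ended. Fresh arrays enter this comparison only through the spread shared by the 3 groups. Without fresh replicate 2, 4 or 6, or 7 for *Mthfd2*, the differences stayed at 0.56, with adjusted p from 0.05 to 0.0561.

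ATP synthase genes (16 of 16 measured) gave no call in any comparison, with medians of -0.07 against fresh and -0.12 against DC-conditioned medium and a range of -0.24 to 0.15 against fresh medium. Other mitochondrial channels and transporters (11 measured) gave no call either, and the pyruvate carrier subunit *Mpc1* differed by -0.05 from fresh medium. *Mpc2* is not analysed here. The 10 measured regulators of mitochondrial gene expression had a median of 0.03 and no call. Among 5 adenylate kinases, which interconvert adenine nucleotides, and hexokinases, which phosphorylate glucose with ATP, *Ak4* and *Hk1* fell against fresh medium (-1.53 and -0.33) and *Ak4*, *Hk1* and *Hk2* against DC-conditioned medium (-1.46, -0.39 and -0.77). Without AML replicates 4 and 5 none of these 5 calls held by limma, with differences of -1.07, -0.27, -1.0, -0.33 and -0.71 in that order. Fewer AML arrays enter that setting, and a call can be lost there at a similar difference, as for *Hk2* (-0.77 and -0.71). Against fresh medium the call of *Hk1* was also lost without any 1 of AML replicates 1 to 5 or fresh replicates 2 to 7 (adjusted p up to 0.123). It was lost too without any 1 of DC replicates 1 to 5 and 7. Those enter only through the shared spread, and the difference stayed at -0.33 (adjusted p from 0.0501 to 0.0571). Against DC-conditioned medium the call of *Ak4* was lost without AML replicate 4 (adjusted p = 0.0541). The call of *Hk1* was lost without AML replicate 4 or 5 (0.0532 and 0.055). The call of *Hk2* was lost without any 1 of AML replicates 1 to 5 or DC replicates 4 to 7 (up to 0.0999). Without fresh replicate 2 or 6 the call of *Hk2* was lost at an unchanged difference of -0.77 (0.0515 and 0.0506).

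**Figure D4:**
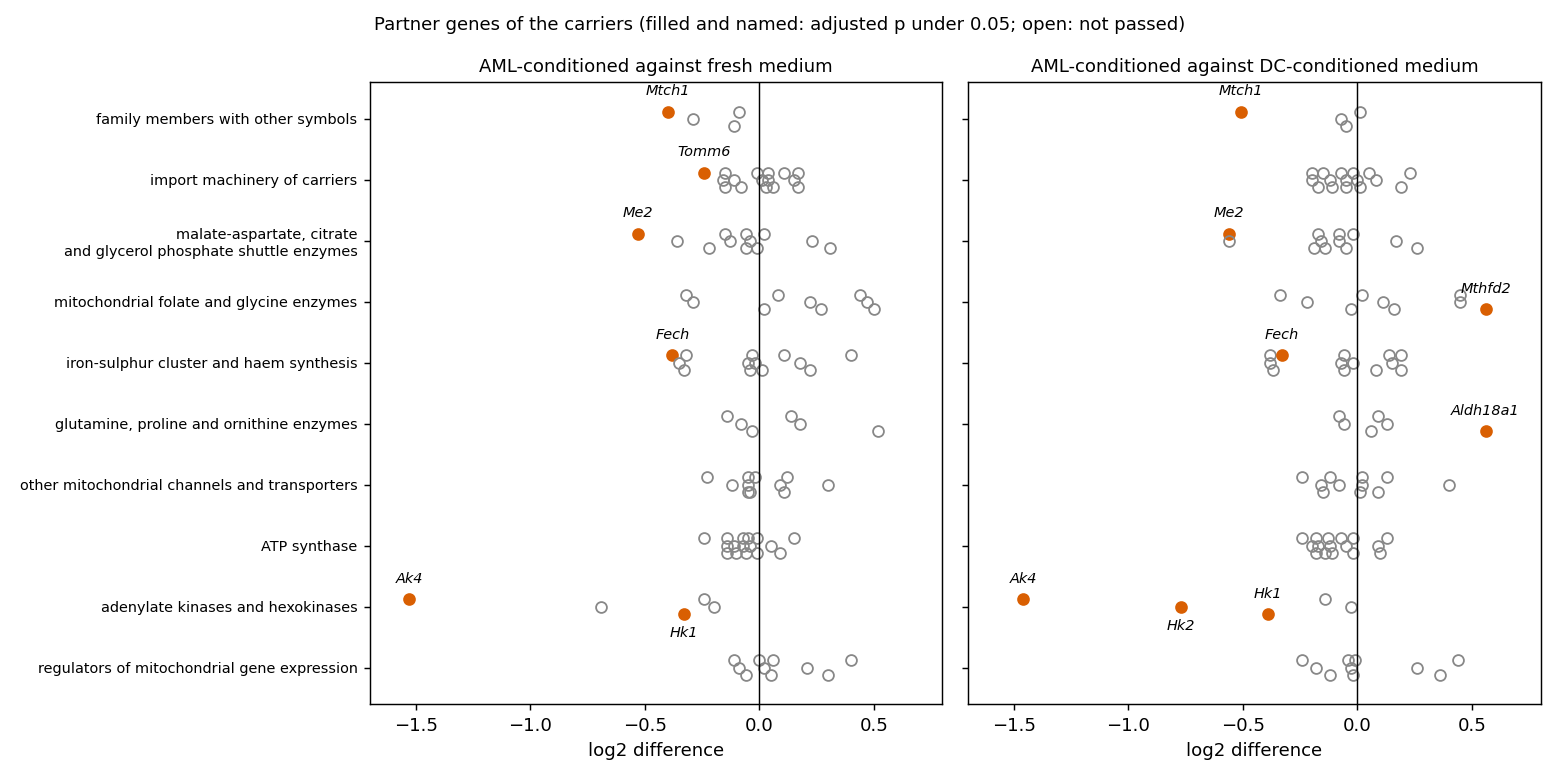
Log2 differences of 102 partner genes in 10 lists for AML-conditioned against fresh medium (left) and against DC-conditioned medium (right); each point is 1 gene, filled and named where limma's adjusted p was under 0.05. The 6 filled points on the left are all below 0, from -1.53 for *Ak4* to -0.24 for *Tomm6*.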

How the data were processed

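The authors deposited 1 table of log2 values, 1 row per transcript cluster of the array. Per the submitters' processing notes it was made with oligo and RMA (versions not stated), a method of background correction, quantile normalization and probe summary that yields no separate signal over background. The build used for the deposited table is not given in the sources used here. Of 22203 rows, 19572 had 1 gene symbol in the platform annotation, 0 had several and 2631 had none. For 55 symbols with more than 1 row, the row with the highest mean over the 21 arrays was kept, which left 19505 genes.

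All genes were fitted in 1 model over the 21 arrays without covariates (limma 3.58.1, lmFit and eBayes, R 4.3.3). Two-sided p-values were adjusted after Benjamini and Hochberg over the 19505 genes of each comparison, and adjusted p under 0.05 is a call. The fit was tested on simulated data with independent arrays and 1 spread per gene for all groups. That setting does not cover a spread that differs between groups or between sets of replicates. P-values rest on the spread between samples within groups, pooled per gene over the 3 groups of 7 and moderated by eBayes. The labels call these samples biological replicates without naming donors. Groups follow the labels' culture medium. The 95% intervals are not adjusted.

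Members and gene lists were chosen with earlier results of these data known. Named are all called carriers, in each comparison the 6 uncalled carriers with the largest difference, carriers fixed by name (not all of which are reported here), and of the partner lists the called genes with *Mtch1*, *Mtch2*, *Mpc1*, *Mpc2* and *Ucp2*. Other genes were named after their values were seen. Alternatives were a replicate block or random effect, the set of replicates 1 to 3 or 4 to 7 as a term, further quantile normalization, median centring, a filter at the 25th percentile of level, averaging the rows of a symbol, array weights, a trended and robust eBayes, 2 groups alone, leaving out AML replicates 4 and 5 together, and leaving out each array. The sample titles do not name the sets of replicates used as a term. Motifs were counted in RefSeq promoters (GRCm38.p6) matched by symbol.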

Additional observations from a re-analysis of the deposited data

Results flagged for a closer look

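Within groups of 7 arrays, 4 of 138 combinations of carrier and medium held 1 array whose gap to the nearest other array exceeded Dixon's 95% critical value of 0.568 of the group's range. Chance alone gives about 1 in 20. In AML-conditioned medium *Slc25a42* was highest on replicate 5, at 6.79 against a next value of 6.11. In DC-conditioned medium *Slc25a41* was highest on replicate 2, at 5.33 against 5.00, and *Slc25a28* was lowest on replicate 7, at 7.23 against 7.32. In fresh medium *Slc25a5* was lowest on replicate 3, at 11.87 against 12.01. None of these arrays decided a call of its gene.

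The effects of the conditioned media on *Slc25a35* differed by 0.38 on the log2 scale (limma adjusted p = 0.022), with AML-conditioned medium 0.20 above and DC-conditioned medium 0.18 below fresh medium (log2 difference -0.18). This is the same test between the conditioned media as reported above, and not a further result.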

How the results depend on the processing

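The count of called carriers in DC-conditioned against fresh medium was 0 in all 32 alternatives, and the medians of the 46 carriers stayed between -0.01 and 0.06 over the 3 comparisons. The carrier median in AML-conditioned against DC-conditioned medium went from 0.04 to -0.01 with array weights, a change of sign within the spread between arrays, and no called difference, nor any of the 6 largest uncalled carrier differences of a comparison, changed direction. In AML-conditioned against fresh medium the count went from 0 to 2 with the replicate number as a random effect and with the set of replicates as a term (*Slc25a4* and *Slc25a24* in both). It went to 1 (*Slc25a4*) with quantile normalization, the filter at the 25th percentile and the trend and robust estimate, and ranged from 0 to 2 when 1 array was left out. In AML-conditioned against DC-conditioned medium it went from 1 to 3 with the random effect, to 2 with the set term and with trend and robust estimation, and to 0 for the 2 groups alone and without AML replicates 4 and 5. It ranged from 0 to 3 when 1 array was left out. The cause was not tested, except that fewer arrays enter the last settings.

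The labels number the replicates alike in each medium. Deviations of arrays with the same number correlated between -0.109 and 0.364, and not every array correlated best with its own number, so the numbers were not taken as pairs. With the replicate number as a block, 2 carriers were called in AML-conditioned against fresh medium (*Slc25a4*, adjusted p = 0.038, and *Slc25a24*, 0.0136) and 2 against DC-conditioned medium (*Slc25a24*, 0.00958, and *Slc25a35*). Over all genes the block gave 1012 calls against 541, and 784 against 466.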
